A study of Mus musculus with 31 samples.

Results

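Hippocampal gene expression was compared between Glud1 transgenic (Tg) and wild type (wt) mice at 10 days of age. The arrays were those whose titles give this age, 7 of the 31 in the series, with 3 Tg mice (Tg1 to Tg3) and 4 wt mice (wt1 to wt4). All mice had the C57BL/6 strain background. Per the methods of the study they were male, and the wt mice were matched in age. Tg mice carry extra copies of Glud1 that are expressed in neurons of the central nervous system. Each array held total RNA of the whole hippocampus from 1 mouse, hybridized to an Affymetrix GeneChip array of the mouse genome. The methods give 3 mice of each genotype per age, while 4 wt arrays of 10 days were analysed, and the labels do not say whether mice shared a litter. The other 24 arrays, from mice of 4.5, 9, 14.5 and 20 months, entered the model for its estimate of the spread and served for the comparison with later life.

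Glud1 encodes glutamate dehydrogenase 1, a mitochondrial enzyme that interconverts glutamate and alpha-ketoglutarate. Glutamate is the main excitatory transmitter of the hippocampus, and the Tg mice were made to study a moderate excess of it. At 10 days the mouse hippocampus still forms synapses, dentate granule cells are still being born, and myelination has barely begun. The comparison therefore asks whether the transcript levels of the Tg hippocampus already differ before adulthood.

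Signals are given as log2 of the deposited value after quantile normalization over all arrays, and differences as Tg minus wt on that log2 scale with their standard error (SE). The arrays carry 45037 mouse probe sets, sets of short oligonucleotides that each detect a transcript, and 26877 passed a filter on low signals and were tested. Only 23051 probe sets exceeded the median of their array on 3 or more of the 7 arrays at 10 days. Because a probe set also entered through later ages, some tested signals were low at 10 days. For counts over the 12844 genes measured, a gene counts by whichever of its probe sets had the highest mean.

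The median signals of the 7 arrays before normalization ran from 91.4 to 102. Tg minus wt, on the log2 scale, the array median differed by 0.036, the 3'/5' ratios of Gapdh and beta-actin by 0.029 and -0.0061, and the bioB and cre spike-in signals by 0.17 and 0.031. The exact two-sided permutation p values of these 5 measures were 0.257 to 0.857, and with 0.0571 as the smallest p that 3 against 4 arrays allow, this test says nothing on whether the arrays were alike. Correlations between arrays were 0.947 to 0.966 within Tg, 0.964 to 0.970 within wt and 0.950 to 0.973 across the genotypes. Tg1 had the lowest mean correlation with the other 6 arrays, at 0.952. Markers of hippocampal neurons were above the array median of 6.84 in all 7 mice. Neurod6, a transcription factor of pyramidal neurons, lay between 12.57 and 12.81, Wfs1 of CA1 neurons between 10.58 and 10.94, Prox1 of dentate granule cells between 8.77 and 9.79, and Dcx, a microtubule protein of immature neurons, between 12.58 and 13.03. The Y-linked genes Eif2s3y, Kdm5d and Uty read 9.32 to 10.19, 8.13 to 8.77 and 7.68 to 8.34 in the 7 mice. Nnt, which is defective in some C57BL/6 substrains, differed by -0.24 ± 0.10 with an adjusted p of 0.638 in limma, and its signals overlapped between the genotypes.

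Few probe sets differed between the genotypes at 10 days. At an adjusted p under 0.05 in limma with Benjamini-Hochberg adjustment, 3 probe sets were higher and 7 lower in Tg mice, 10 in all or 0.0372% of those tested. With the threshold that the study set for a single age, here taken as 1.3-fold or more with an adjusted p no higher than 0.01 in limma, no probe set was higher and 1 was lower, 0.00372% of those tested. Without adjustment, 1914 probe sets had a p under 0.05, of which 911 were higher and 1003 lower, where 1344 would make up 5% of those tested. For single ages the study used SAM on RMA-normalized values with another filter, followed by a second test, Cyber-T. It reported relatively few differing genes at 10 days, most of them lower in Tg. SAM on the signals used here, over the 7 arrays, called no probe set in either direction, and its lowest false discovery rate was 0.244. When the 7 arrays were fitted alone, limma also called none, while 1465 had an unadjusted p under 0.05. The calls below thus rest on the spread shared over all 31 arrays. The p values of that fit measure a moderated spread between mice pooled over all ages, not the spread of the 7 mice alone. For some called probe sets the mice spread more at 10 days than later. The wt SD was 1.03 against 0.11 to 0.22 at later ages for Cdh19, and 1.11 against 0.22 to 0.52 for Spred1. For such probe sets the SE given below may understate the spread at 10 days. Med14 went the other way, at 0.10 against 0.11 to 0.55. With the 7 arrays alone, the smallest adjusted p in limma was 0.896. The number of arrays limits the precision. The median SE was 0.130 over all genes, 0.121 for genes above the array median at 10 days and 0.426 for those below.

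**Figure D1:**
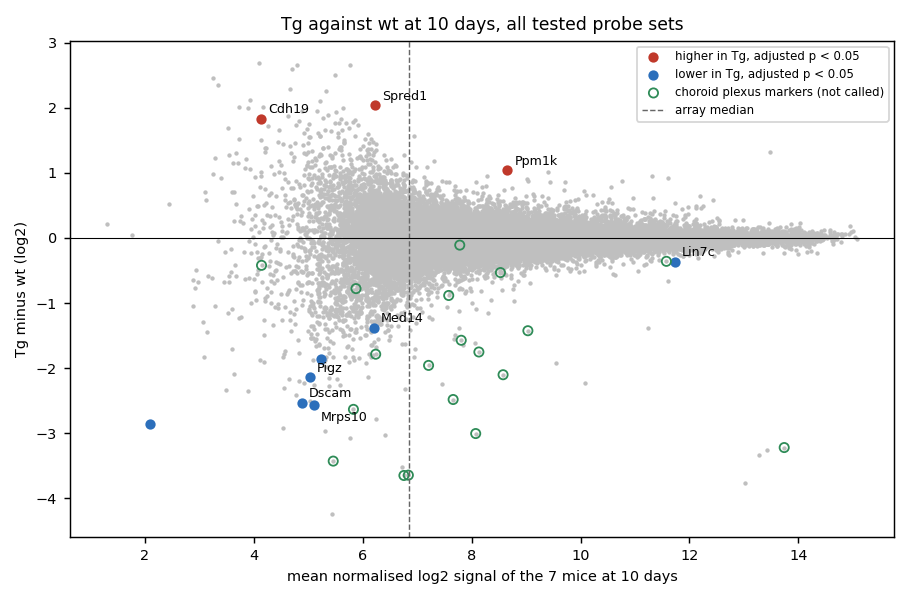
Tg minus wt on the log2 scale (vertical axis) against the mean normalised log2 signal of the 7 mice (horizontal axis), with a point for each of the 26877 probe sets tested. The dashed line is the array median of 6.84. The called probe sets are in red (higher in Tg) and blue (lower), and 8 of the 10 have a 7-mouse mean below the array median, while Ppm1k and Lin7c lie above it. Open green circles mark the choroid plexus markers, which were lower in Tg on average but did not pass the test.

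Ppm1k encodes a phosphatase of the mitochondrial matrix that activates the breakdown of branched-chain amino acids, whose amino groups feed the glutamate pool. Probe set 1441988_at measured 8.87, 9.19 and 9.67 in Tg1 to Tg3 and 7.97, 8.29, 7.96 and 8.61 in wt1 to wt4. Every Tg mouse was above every wt mouse, and wt4 was the highest of the wt mice. The difference was 1.04 ± 0.17, 2.06-fold higher in Tg, with a 95% interval of 0.69 to 1.39 and an adjusted p of 0.0163 in limma. With 50 added to each signal before log2 the difference was 0.93 with an adjusted p of 0.0466 in limma, and Ppm1k was then the only probe set called. It was likewise the only call, with an adjusted p of 0.0298 in limma, when the filter was set on the 7 arrays, under which 2 of the 10 called probe sets were tested. The call ended without Tg3, wt1 or wt3, with adjusted p values of 0.0583, 0.0509 and 0.0569. The other probe set of Ppm1k, 1452973_at, read 10.21, 10.21 and 10.28 in the Tg mice and 9.30, 9.39, 9.51 and 10.41 in the wt mice. There wt4 exceeded all Tg mice while the other wt mice were below them, and the difference of 0.58 ± 0.14 had an adjusted p of 0.202 in limma.

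Lin7c, a scaffold protein with a PDZ domain that forms a complex with CASK and Mint at synapses and other cell junctions, was lower in Tg mice. Its probe set 1423322_at gave 11.55, 11.50 and 11.52 in Tg1 to Tg3, an SD of 0.022, and 12.02, 11.95, 11.86 and 11.71 in wt1 to wt4. The groups did not overlap, and wt4 was the nearest to the Tg mice. The difference was -0.37 ± 0.07, 1.29-fold lower in Tg, with a 95% interval of -0.51 to -0.22 and an adjusted p of 0.0328 in limma. The other 3 probe sets of Lin7c also had lower means in Tg, at -0.48 ± 0.14, -0.39 ± 0.13 and -0.16 ± 0.08, and none passed the test. The call held in the fit without wt4, with an adjusted p of 0.00459, and ended in each of the 6 fits that left out another mouse, with adjusted p values between 0.0534 and 0.166. Lin7c is on the list of genes that the study named from these arrays, so its presence there is no independent support.

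Spred1, an inhibitor of Ras signalling to the MAP kinases, was higher in Tg mice by its probe set 1443652_x_at. The signals were 7.44, 7.92 and 6.80 in Tg1 to Tg3 and 4.30, 6.57, 5.99 and 4.51 in wt1 to wt4. All wt values and that of Tg3 were below the array median. The difference was 2.04 ± 0.39, with an adjusted p of 0.044 in limma, and it ended as a call without Tg1, Tg2, wt1, wt3 or wt4, with adjusted p values of 0.0569 to 0.17. The other 6 probe sets of Spred1 had higher means in Tg too, but by 0.04 to 0.15, and none had an unadjusted p under 0.05. With 50 added to each signal the difference of 1443652_x_at was 1.19, with an adjusted p of 0.239.

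The other 7 called probe sets were named after their values were seen, since their means lay below the array median in both groups. Mrps10, a protein of the small subunit of the mitochondrial ribosome, had the smallest p and was the single call at the stricter threshold. Its probe set 1458999_at read 4.17, 3.39 and 3.33 in the Tg mice and 5.72, 6.65, 6.74 and 5.69 in the wt mice, a difference of -2.57 ± 0.37 with an adjusted p of 0.00375 in limma. The call held in all 7 fits that left out a mouse, with adjusted p values of 0.000831 to 0.0217. The other Mrps10 probe set, 1428153_at, which was well above the array median in the 7 mice, differed by 0.08 ± 0.08 and did not share the direction. With 50 added to each signal, the difference of 1458999_at was -0.997 with an adjusted p of 0.17.

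Pigz adds a side mannose to the glycolipid anchor of membrane proteins, and its probe set 1458306_at read 4.16, 4.16 and 3.09 in Tg against 5.44, 5.63, 6.38 and 6.31 in wt, a difference of -2.14 ± 0.37. Of the 2 other probe sets of Pigz, 1 shared the direction, and 0 had an unadjusted p under 0.05 in that direction. Med14, a core subunit of the Mediator complex of transcription, gave 5.18, 5.78 and 5.27 against 6.91, 6.83, 6.69 and 6.73 by 1443597_at, with a difference of -1.38 ± 0.25. The groups were apart for both genes, and the 4 wt values of Med14 lay within a narrow range. The other 3 probe sets of Med14 also had lower means in Tg, and 1437632_at had an unadjusted p of 0.0387 with a difference of -0.27 ± 0.13. Dscam, an adhesion receptor that guides neuronal wiring, gave 2.17, 3.02 and 5.11 in Tg and 6.21, 5.34, 5.61 and 6.69 in wt by 1419293_at. Its difference was -2.53 ± 0.47, with Tg3 close to the wt mice, whereas its other probe sets 1441082_at, 1449411_at and 1458625_at, with higher signals, differed by -0.14 ± 0.14, 0.04 ± 0.15 and 0.10 ± 0.23.

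Cdh19, a cadherin found in Schwann cells and the oligodendrocyte lineage, was the only gene whose probe set of highest mean was called, 1 of 12844 genes or 0.00779%. Its single probe set 1457373_at read 4.84, 5.55 and 5.15 in Tg mice and 3.83, 4.57, 2.63 and 2.38 in wt mice, and the difference was 1.83 ± 0.32 with an adjusted p of 0.0199 in limma. These signals lay far below those of adult mice, whose group means ran from 7.33 to 8.54 for this probe set. Probe sets 1435629_at and 1422249_s_at, for which no gene is listed, differed by -2.86 ± 0.49 and -1.86 ± 0.34. The first gave 0.995, 0.28 and 0.095 in Tg and 3.47, 4.94, 2.57 and 2.29 in wt, all far below the array median. The second gave 3.71, 4.17 and 4.64 in Tg and 5.83 to 6.16 in wt.

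**Figure D2:**
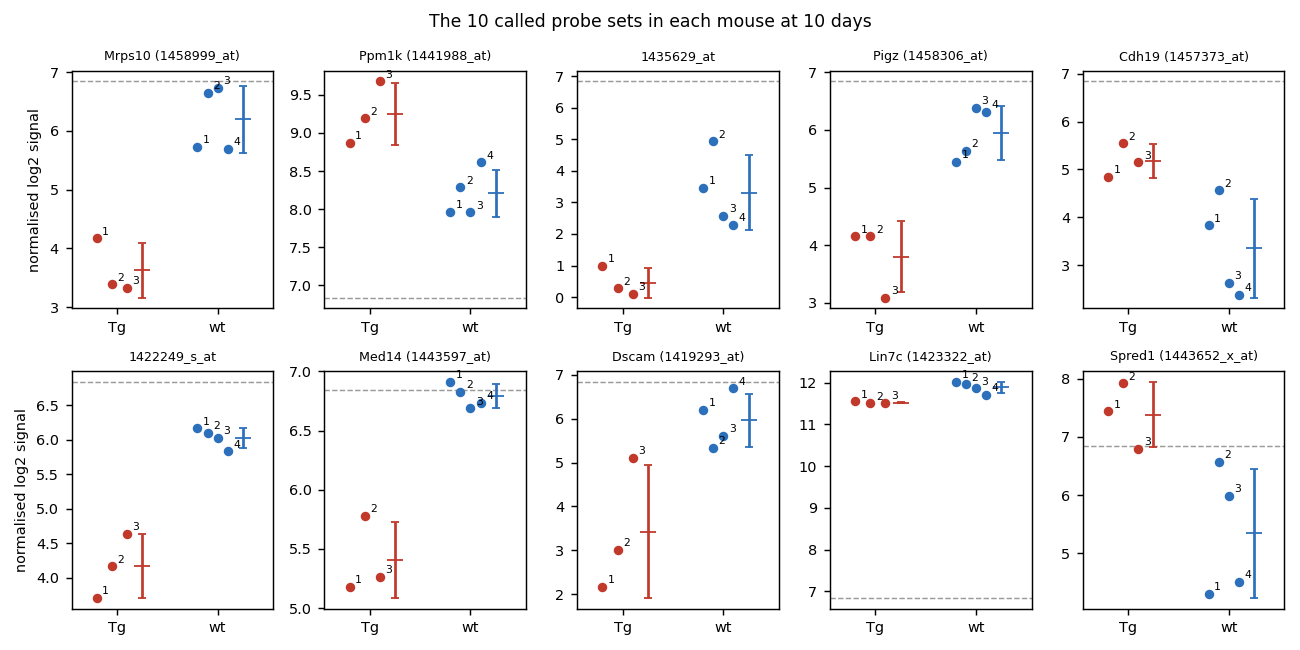
Normalised log2 signal (vertical axes, a separate range in each panel) of the 10 called probe sets in each Tg (red) and wt (blue) mouse at 10 days, with the mouse number beside each point, group means with SD as bars, and the array median of 6.84 as a dashed line where it falls in range. Tg and wt mice do not overlap in any panel, but the probe sets were chosen by p, and 6.05% of all genes had no overlap. Ppm1k and Lin7c lie above the array median in all mice, and 6 of the 10 probe sets had every mouse below the median of its array.

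The 7 genes with another tested probe set had 19 such probe sets together. Of these, 15 had means in the same direction as the called probe set, and 4 of them had an unadjusted p under 0.05, which were 2 of Lin7c, 1 of Ppm1k and 1 of Med14. With 50 added to each signal, all 10 kept their direction, and the adjusted p of those other than Ppm1k was 0.143 to 0.844. Detection calls were not used here, so it is not known how far the low signals of 10 days stood above background, and their fold changes are uncertain.

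The next genes in order of p did not pass the test, with adjusted p values of 0.143 to 0.195, and are given as values only. They are 8 genes with a higher and 9 with a lower mean in Tg. Among the first, Wtap, a subunit of the complex that methylates adenosine in mRNA, read 9.73, 9.91 and 10.19 in Tg against 9.45 to 9.56 in the 4 wt mice, a difference of 0.45 ± 0.10. Ntm, a cell adhesion protein of neurons, differed by 0.34 ± 0.08 and by 0.29 ± 0.09 in another probe set. Letm1, a cation exchanger of the inner mitochondrial membrane, differed by 0.60 ± 0.15, and its probe set with the highest mean by 0.18 ± 0.07. Tmod2, which caps actin filaments in neurons, differed by 1.09 ± 0.26, Ywhab of the 14-3-3 family by 0.86 ± 0.20, Ppig, a prolyl isomerase, by 0.45 ± 0.11, Eny2 of the SAGA complex by 0.44 ± 0.10 and Ankrd33b by 0.56 ± 0.13. Other probe sets of these genes did not all share the direction. That of Wtap, 1454805_at, differed by -0.06 ± 0.07, and for Ywhab probe set 1420878_a_at differed by -0.20 ± 0.08.

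Among those with lower means, Thrsp, a lipogenic protein induced by thyroid hormone, read 9.35, 9.23 and 9.36 in Tg and 9.58, 9.85, 9.83 and 9.94 in wt, a difference of -0.49 ± 0.10. Timp3, an inhibitor of matrix metalloproteinases, read 7.86, 8.15 and 7.77 against 8.49 to 8.58, a difference of -0.60 ± 0.13. Fgfr2, a receptor for fibroblast growth factors, differed by -0.54 ± 0.13. Kiz of the centrosome differed by -0.68 ± 0.15, Spsb1, an adaptor of a ubiquitin ligase, by -0.84 ± 0.19, Cbx7 of Polycomb complexes by -0.68 ± 0.16, Prpf38b by -0.45 ± 0.11, and the zinc finger genes Zfp949 and Zfp207 by -0.62 ± 0.15 and -0.29 ± 0.06. The other Fgfr2 probe set differed by -0.14 ± 0.13 and that of Thrsp by -0.07 ± 0.19. For Timp3, the probe set with the highest mean, 1449335_at, differed by -0.17 ± 0.15. For 16 of the 17 genes the mice of the 2 genotypes did not overlap, but they were chosen by p, and 6.05% of all genes had no overlap.

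Glud1 itself passed the test by neither of its probe sets. Probe set 1448253_at read 12.76, 12.83 and 12.55 in Tg and 12.70, 12.69, 12.77 and 12.69 in wt, a difference of 0.0013 ± 0.065. Probe set 1416209_at read 12.54, 12.57 and 12.33 against 12.41, 12.49, 12.50 and 12.49, a difference of 0.0060 ± 0.080. Per the study the transgene does not carry the 3' untranslated region that both probe sets detect, so these values describe the mouse's own transcript and do not check the genotype. The 95% intervals, from -0.16 to 0.17 for 1416209_at and from -0.13 to 0.13 for 1448253_at, lay within 1.3-fold in either direction.

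Of 28 measured genes of glutamate metabolism and transport, 0 had an adjusted or unadjusted p under 0.05, where 2.16% of all genes had an unadjusted p under 0.05 with a higher mean and 3.50% with a lower. These shares, and the 46.3% of all genes with a difference above 0, are the background for the counts of every list below. Their median difference was 0.010, beside -0.012 over all genes, and for 21 of the 28 the 95% interval lay within 1.3-fold in either direction, as for 51.2% of all genes. Glul, the glutamine synthetase of astrocytes, differed by -0.05 ± 0.08. The aspartate aminotransferases Got1 and Got2 differed by -0.04 ± 0.07 and -0.01 ± 0.06, and the glial glutamate transporters Slc1a2 and Slc1a3 by 0.07 ± 0.05 and -0.09 ± 0.10. The vesicular transporter Slc17a7 had the smallest p of the list, with a difference of -0.16 ± 0.09 that came with 10.78 in Tg3 against 11.27 to 11.38 in the other 6 mice. Such intervals are per gene and not adjusted for their number.

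Among 28 measured glutamate receptor genes and partners the median difference was 0.084, 16 were above 0, and 1 had an unadjusted p under 0.05. The median was 0.030 to 0.069 in the fits that left out a mouse and 0.0044 with the choroid plexus level as a covariate, an alternative chosen after the data were seen. The gene with that p was Grm4, a presynaptic metabotropic receptor, at 8.63, 8.38 and 8.39 in Tg against 8.23 at most in wt, a difference of 0.40 ± 0.18. The AMPA receptor subunits Gria1 and Gria2 differed by -0.08 ± 0.07 and -0.08 ± 0.05, and the NMDA receptor subunits Grin2a and Grin2b by -0.33 ± 0.28 and -0.11 ± 0.12. For 13 of the 28 the interval lay within 1.3-fold.

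In the postsynaptic density, the protein mesh behind the excitatory synapse, 3 of 28 genes had an unadjusted p under 0.05 above 0 and 1 below. These shares were 2.16% and 3.50% over all genes. Differences were above 0 for 21 of the 28, where 46.3% of all genes were, and the median of the list was 0.048. That median was 0.0046 without Tg1, 0.090 without Tg3 and 0.0066 with the choroid plexus covariate. Homer2, which links metabotropic receptors to calcium stores, read 11.71, 11.57 and 11.92 in Tg and 11.32 to 11.49 in wt, a difference of 0.36 ± 0.11 with an adjusted p of 0.36. The core scaffold Dlg4 differed by 0.05 ± 0.14. Among 42 genes of synaptic vesicles and release, 27 were above 0 with a median of 0.032, which was 0.0033 to 0.057 in the fits that left out a mouse. The vesicle protein Sv2a differed by 0.17 ± 0.06, Rab3b by 0.35 ± 0.16 and Syt11 by -0.16 ± 0.06, none of them past the test, while Syp and Snap25 differed by 0.03 ± 0.06 and 0.02 ± 0.07. For 32 of the 42 genes the interval lay within 1.3-fold.

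Of 15 genes of GABA signalling, 0 had an unadjusted p under 0.05 and the median difference was 0.0044, which ran from -0.034 without Tg2 to 0.045 without Tg1. The lowest p was that of Slc12a2, the chloride importer that is high in young neurons, with 10.16, 10.18 and 10.28 in Tg against 10.93, 10.54, 10.64 and 10.31 in wt and a difference of -0.40 ± 0.20. This gene is also active in the choroid plexus, whose markers differed between these mice as described below, and a link with them was not tested. Its counterpart Slc12a5, the chloride exporter of mature neurons, differed by -0.04 ± 0.06, and Gad1 and Gad2, which make GABA, by -0.03 ± 0.10 and 0.13 ± 0.11. Among 22 interneuron markers 18 were above 0, where 46.3% of all genes were. Their median was 0.054, which was 0.017 without Tg2, 0.13 without Tg3 and 0.11 with the choroid plexus covariate. Sst differed by 0.21 ± 0.13 and Crhbp by 0.30 ± 0.13, with Tg and wt mice apart for both. Of the 22 markers, 3 had no overlap between the genotypes, beside 6.05% of all genes, and none passed the test.

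Potassium channel genes had a median difference of -0.030 over 44 genes, with 2 higher and 1 lower at an unadjusted p under 0.05. Kcnc1, a fast channel of spiking neurons, differed by 0.36 ± 0.11. Sodium and calcium channel genes had a median of 0.0070 over 27 genes, with Trpc5 at 0.39 ± 0.15. Among 37 ion pump and exchanger genes the median was -0.024. An unadjusted p under 0.05 came with a lower mean for 4 and a higher mean for 1, beside 3.50% and 2.16% of all genes. Of the 4, Atp7a, a copper pump, differed by -0.61 ± 0.21 and Fxyd1, a regulator of the sodium pump, by -0.69 ± 0.27. Both read highest in wt1 and wt3, the mice with the highest choroid plexus level, and whether the 2 are linked was not tested.

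Over 46 genes of immature neurons and neurogenesis the median was -0.022, with Cdk5r1, an activator of Cdk5 in migrating neurons, at 0.19 ± 0.07, the lipoprotein receptor Vldlr at 0.26 ± 0.10 and the microtubule regulator Stmn2 at -0.14 ± 0.06. Dcx and Gap43 differed by 0.11 ± 0.13 and 0.16 ± 0.12. Over 54 axon guidance genes the median was -0.037, and 2 had an unadjusted p under 0.05 with a lower mean, Sema4f at -0.22 ± 0.09 and Slit2 at -0.21 ± 0.09. Over 47 cell cycle genes the median was -0.032 and 0 had an unadjusted p under 0.05. Mki67, a marker of cycling cells, read 7.74, 8.30 and 8.48 in Tg and 8.22 to 8.49 in wt, and only 7 of the 47 had an interval within 1.3-fold.

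Among 53 cytoskeleton genes, 49 had an interval within 1.3-fold, and the median was 0.015, which ran from -0.0056 without Tg2 to 0.037 without Tg3. Enah, an actin regulator of growth cones, had the smallest p of the list with -0.24 ± 0.06 and an adjusted p of 0.204. Map1b, a microtubule protein of growing axons, differed by 0.50 ± 0.17, with 13.02 in Tg3 against 12.01 and 12.16 in Tg1 and Tg2 and 11.72 to 11.99 in wt.

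No marker on the lists of glia or vessels passed the test at 10 days. Cdh19, called as described above, is on none of these lists. Over 27 myelin and oligodendrocyte markers the median was 0.019, and Mbp, a main protein of myelin, ran from 11.92 to 12.82 in Tg and from 11.57 to 12.71 in wt. Mog, of late myelin, was between 0.95 and 6.12 in the 7 mice, below the array median throughout. Over 24 astrocyte markers the median was 0.018, 0 had an unadjusted p under 0.05, and 21 had an interval within 1.3-fold, with Gfap at 0.04 ± 0.09. Of 22 microglial markers 17 were above 0, where 46.3% of all genes were. The median of that list was 0.10, which ran from 0.053 to 0.14 in the fits that left out a mouse. Tyrobp, a signalling adaptor of microglia, differed by 0.28 ± 0.12 and Aif1 by 0.40 ± 0.23. Over 25 endothelial markers the median was -0.0079, with Cldn5 of the tight junction at 0.08 ± 0.12. In tissue of mixed cells, fewer cells of a type and less RNA per cell cannot be told apart.

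Over 64 genes of oxidative phosphorylation, 61 had an interval within 1.3-fold, 43 were above 0 and the median was 0.034. The smallest p values were those of the complex I subunits Ndufb2 at 0.17 ± 0.07 and Ndufb8 at 0.11 ± 0.05. Over 48 genes of glycolysis and the citric acid cycle, 43 had an interval within 1.3-fold, 34 were below 0 and the median was -0.028, which was -0.056 without Tg1 and -0.0045 with the choroid plexus covariate. Pcx, the pyruvate carboxylase that refills the cycle, read 9.28, 9.42 and 9.23 in Tg against 9.51 to 9.64 in wt, a difference of -0.26 ± 0.09 with an adjusted p of 0.44. Over 50 genes of mitochondrial carriers, import and lipids the median was -0.027, and the import receptor Tomm20 differed by -0.0037 ± 0.055.

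No gene of the ribosomal or chaperone lists passed the test. Of 42 cytosolic ribosomal genes 37 were above 0, where 46.3% of all genes were, with a median of 0.064. All 7 with an unadjusted p under 0.05 were above 0, among them Rps26 at 0.15 ± 0.05, Rps20 at 0.22 ± 0.08 and Rps29 at 0.18 ± 0.07. The median of this list was 0.048 to 0.075 in the fits that left out a mouse. Of 35 heat shock and endoplasmic reticulum stress genes 29 were below 0, with a median of -0.070, and the 4 with an unadjusted p under 0.05 were all below 0. Over all genes, 46.3% were above 0, and 3.50% had an unadjusted p under 0.05 with a lower mean. Hspa5, the main chaperone of the endoplasmic reticulum, read 12.62, 12.45 and 12.65 in Tg and 12.86, 12.81, 12.97 and 12.68 in wt, a difference of -0.26 ± 0.10. The inducible Hspa1a differed by -0.50 ± 0.15, the mitochondrial chaperonin Hspd1 by -0.14 ± 0.06 and Creld2 by -0.32 ± 0.13. The median of this list was -0.11 to -0.057 in the fits that left out a mouse and -0.027 with the choroid plexus level, described below, as a covariate. Over 71 ubiquitin and proteasome genes the median was -0.013, and 66 had an interval within 1.3-fold. Genes of a list share regulation and cross-reacting probes, so their counts are no independent trials.

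Among 40 genes of immediate early and activity response 0 had an unadjusted p under 0.05, and Fos and Arc, which neurons switch on with activity, differed by -0.22 ± 0.47 and 0.50 ± 0.44. Bdnf and its receptor Ntrk2 differed by 0.07 ± 0.12 and 0.04 ± 0.08, while Cntfr, the receptor of ciliary neurotrophic factor, read 8.10, 7.50 and 7.80 in Tg against 7.13 to 7.46 in wt, a difference of 0.52 ± 0.16 with an adjusted p of 0.384. Among 20 clock genes, 4 had an unadjusted p under 0.05 with a higher mean and 1 with a lower. These shares were 2.16% and 3.50% over all genes. The median of the list was -0.020, with 11 below 0. Hlf differed by 0.43 ± 0.12, Cry2 by 0.19 ± 0.06, Rorb by 0.50 ± 0.18 and Csnk1d by -0.26 ± 0.08. Rorb is also on the list of subiculum and cortex markers, whose median was 0.13 over 20 genes, with 13 above 0. Whether tissue content differed was not tested. Gclc, which sets the rate of glutathione synthesis, differed by 0.29 ± 0.08, and its regulator Nfe2l2 by -0.35 ± 0.13. Over 20 genes of glucocorticoid response the median was -0.018, with 11 below 0. The smallest p of that list was that of Zbtb16, a gene induced by glucocorticoids. It read 10.12, 10.07 and 10.18 in Tg against 9.51 to 9.84 in wt, a difference of 0.41 ± 0.12. None of these passed the test. Of all 1407 measured genes on the 50 lists, 0 were called in limma.

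**Figure D3:**
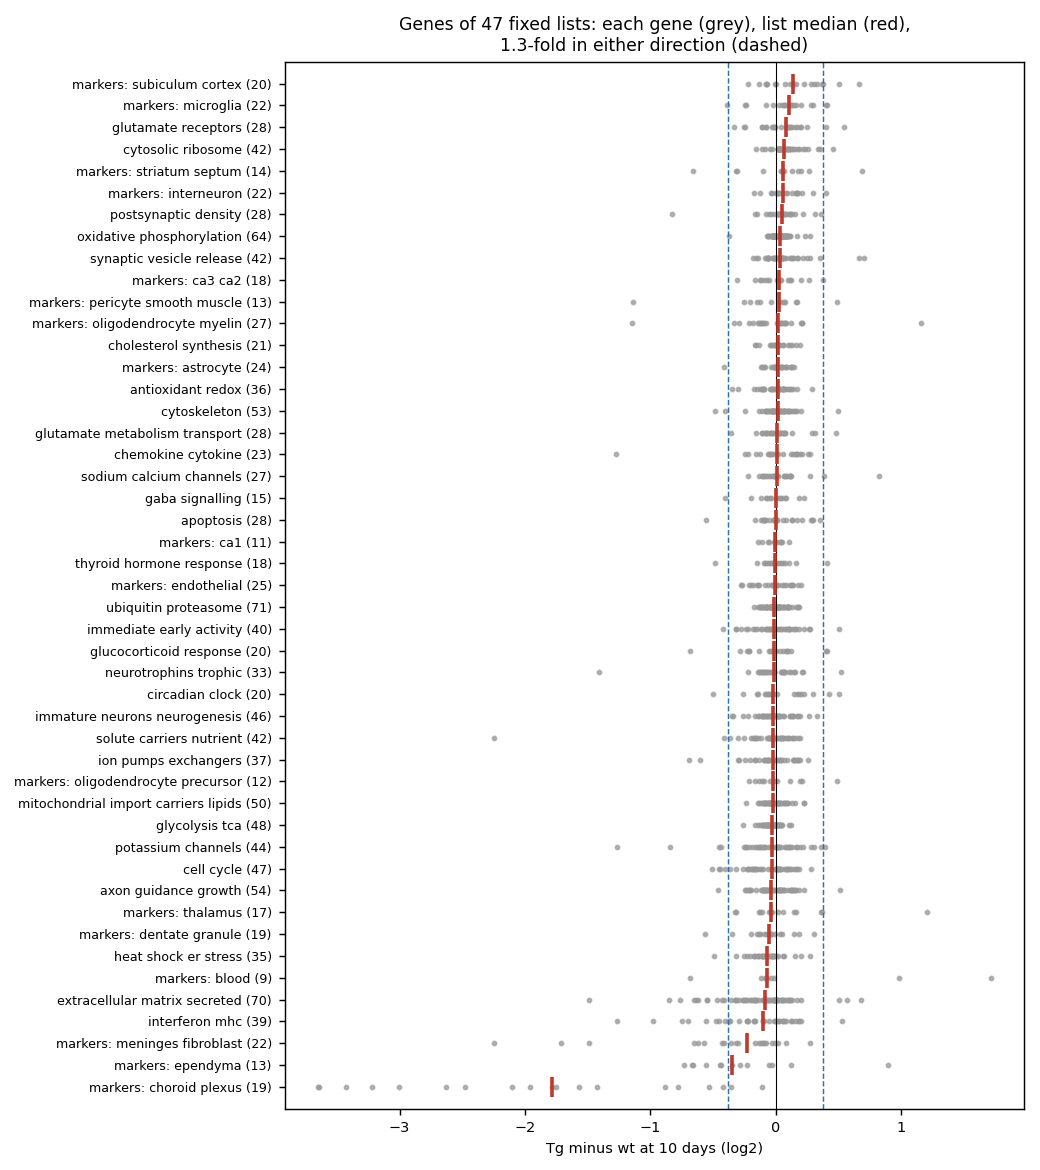
Tg minus wt at 10 days on the log2 scale (horizontal axis) for the genes of 47 lists (rows, with the number of genes measured), with a grey point for each gene, a red bar for the list median and dashed lines at 1.3-fold in either direction. The medians of the lists other than choroid plexus, ependyma and meninges lay between -0.10 and 0.13, while that of the choroid plexus markers was -1.79.

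The list with the largest median difference was that of the choroid plexus, the epithelium that secretes the cerebrospinal fluid and lies against the hippocampus. All 19 measured markers had lower means in Tg, with a median of -1.79, and 5 had an unadjusted p under 0.05, none an adjusted p under 0.05. Ttr, the thyroid hormone carrier that this epithelium makes in abundance, read 10.66, 10.02 and 15.02 in Tg1 to Tg3 and 15.23, 15.23, 15.23 and 14.79 in wt1 to wt4. In deposited signal this was 1623, 1024 and 32422 in the Tg mice and 26014 to 37470 in the wt mice. Tg1 and Tg2 were thus far below all others, while Tg3 was close to the wt mice, and the difference of -3.22 ± 1.15 had an adjusted p of 0.514 in limma. Its other 3 probe sets differed by -3.25 ± 1.18, -3.33 ± 1.32 and -3.76 ± 1.59.

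The tight junction gene Cldn2 read 2.56, 4.12 and 7.32 in Tg and 8.95, 7.95, 9.17 and 7.21 in wt, a difference of -3.65 ± 1.52. Clic6, a chloride channel protein of this epithelium, read 5.54, 5.25 and 8.28 against 10.26, 9.45, 10.29 and 7.44, a difference of -3.01 ± 1.38. Aqp1, its water channel, read 5.54, 5.54 and 7.64 against 9.37, 8.77, 9.64 and 7.11, and Folr1, its folate receptor, 6.66, 6.86 and 8.60 against 10.33, 9.29, 10.57 and 7.72. For all 4 genes wt4 was below Tg3, so the genotypes overlapped. Otx2, a transcription factor of the epithelium, and the channel subunit Kcne2 also had an unadjusted p under 0.05, with differences of -3.43 ± 1.49 and -3.64 ± 1.57.

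The mean log2 signal of the 19 markers was 5.86, 6.15 and 7.94 in Tg1 to Tg3 and 9.13, 8.60, 9.14 and 7.28 in wt1 to wt4. Their summed deposited signal was 4740, 5939 and 38392 in Tg and 30447 to 50272 in wt. Such spread was not limited to 10 days, since the mean at the later ages ran from 5.37 to 8.82 in the 3 wt mice of 4.5 months and from 6.09 to 9.92 in the 3 Tg mice of 9 months. Without Tg1 or Tg3 in turn, the median difference of the list was -1.39 and -2.25. Whether this tissue was cut with the hippocampus in different amounts was not tested, and it cannot be told apart here from a difference in its cells.

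Markers of the neighbouring ependyma and meninges leaned the same way. Over 13 ependymal markers the median was -0.35, with 11 below 0, and that median was 0.21 once the choroid plexus level was a covariate. Over 22 markers of meningeal fibroblasts the median was -0.23, with 19 below 0. Ogn, a matrix protein of the meninges, read 5.59, 7.75 and 7.19 in Tg and 9.12, 8.30, 9.03 and 6.86 in wt, and Slc13a4, a sulfate transporter, 3.94, 6.87 and 7.68 against 9.14, 8.18, 9.25 and 7.08. The mean log2 signal of the meningeal list was 7.91 to 9.08 in Tg and 8.42 to 9.55 in wt. Its median was -0.48 to 0.031 in the fits that left out a mouse and was above 0 without Tg1. Secreted and matrix genes, many of which these tissues make, had a median of -0.088 over 70 genes, with 51 below 0.

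With the choroid plexus level of each array as a covariate, an analysis chosen after the data were seen, 5 probe sets were called and all were among the 10. These were Mrps10, Ppm1k, Pigz, Cdh19 and Med14, and the difference of Ppm1k was then 1.02 with an adjusted p of 0.0462 in limma. That of Lin7c was -0.34 with an adjusted p of 0.158.

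**Figure D4:**
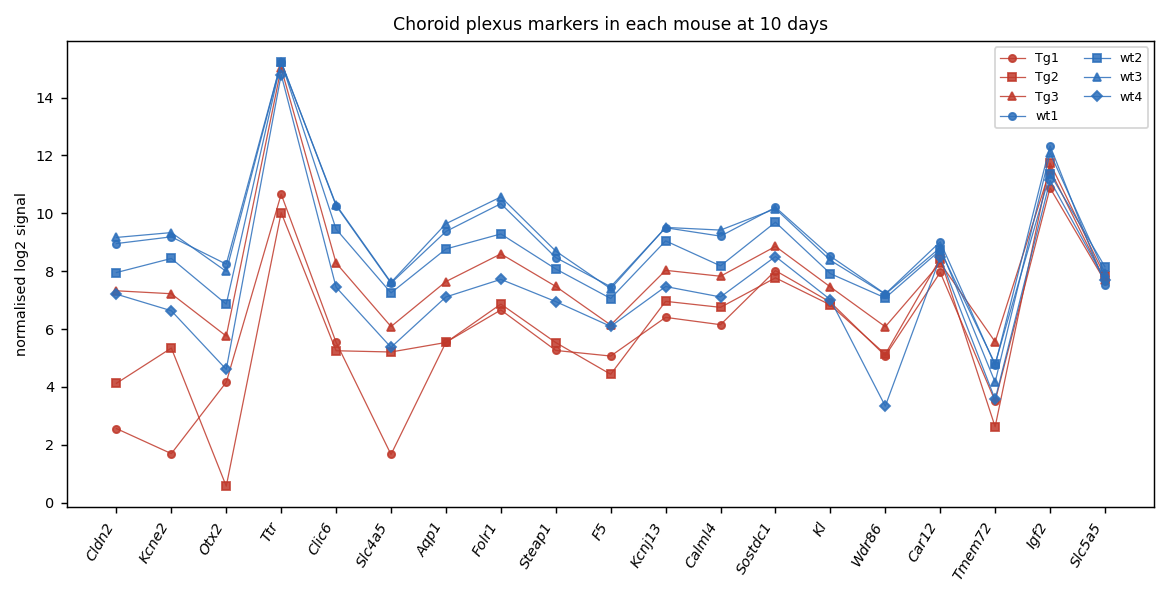
Normalised log2 signal (vertical axis) of the 19 measured choroid plexus markers (horizontal axis, ordered by Tg minus wt) in each Tg (red) and wt (blue) mouse at 10 days, with lines that join the values of a mouse. Tg1 and Tg2 read lowest for most genes, wt1 and wt3 highest, and Tg3 and wt4 lie between them, with Ttr at 10.66 and 10.02 in Tg1 and Tg2 against 14.79 to 15.23 in the other mice.

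The differences of 10 days were compared with those of the same genotypes later in life, which rest on other mice. Of the 10 called probe sets, 6 had the same direction at 4.5 months, 5 at 9 months, 6 at 14.5 months and 5 at 20 months. Only 1, Mrps10 at 4.5 months with -0.98 ± 0.40, had an unadjusted p under 0.05 in the same direction. Ppm1k differed by -0.21 ± 0.18, 0.31 ± 0.18, 0.25 ± 0.18 and 0.23 ± 0.18 at the 4 later ages, and its wt level was 8.21 ± 0.31 (SD, n = 4) at 10 days and 9.42 to 10.39 as the means of later ages. The mean of the Tg mice of 10 days, 9.25 ± 0.40 (SD, n = 3), was thus between those of the young wt mice and of the adults. The mice themselves overlapped the adults, since Tg3 at 9.67 was above the 9.28 to 9.58 of the wt mice of 14.5 months. Lin7c turned to 0.21 ± 0.07 at 9 months, and its mean at 10 days, 11.52 in Tg and 11.89 in wt, was above the mean of all later groups, 11.11 to 11.48. Dscam turned to 2.76 ± 0.51 at 9 months, the age at which 436 probe sets were higher and 498 lower in Tg.

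Whether a difference at 10 days departed from the mean difference of the 4 later ages was tested in the same model. In limma 0 probe sets passed at an adjusted p under 0.05, and 1862 had an unadjusted p under 0.05. The smallest p values belonged to Dscam, Zfp207, Med14, Mrps10 and Lin7c. Dscam departed by -3.15, Zfp207 by -0.41, Med14 by -1.56 and Mrps10 by -2.27, each with an adjusted p of 0.0577, and Lin7c by -0.41 with an adjusted p of 0.0781. Without the trend and robust terms of the moderation, 8 probe sets passed.

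**Figure D5:**
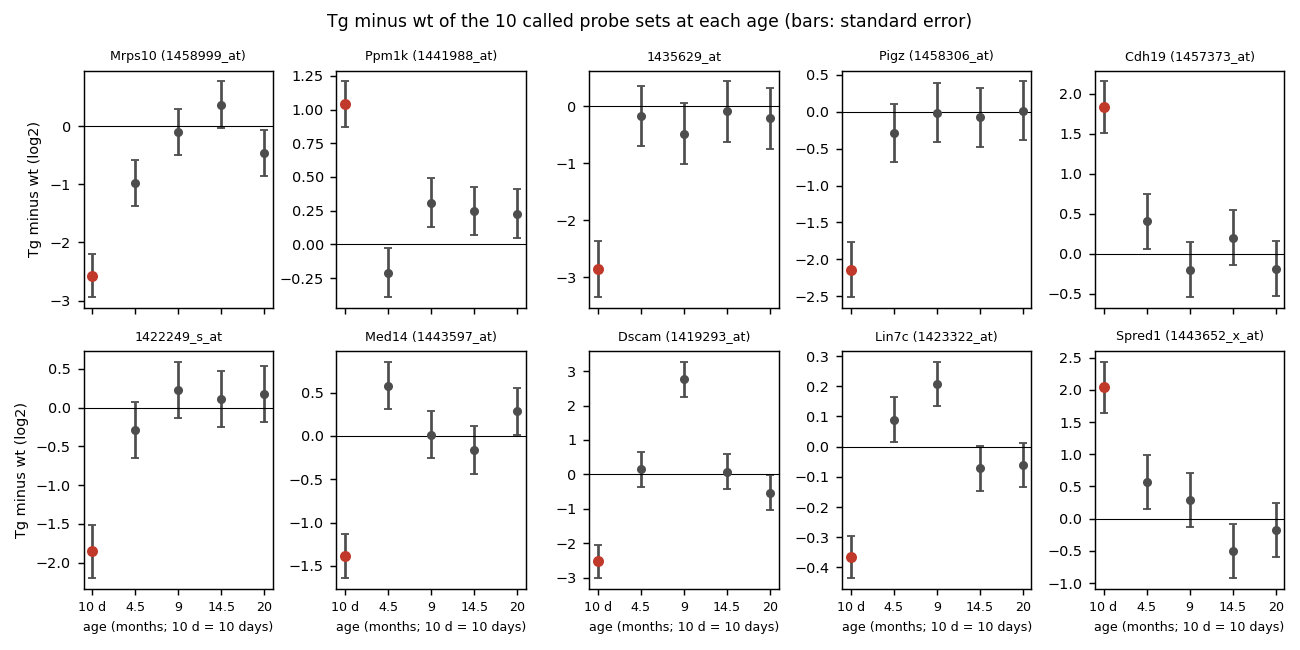
Tg minus wt on the log2 scale (vertical axes, a separate range in each panel) of the 10 called probe sets at 10 days (red) and at 4.5, 9, 14.5 and 20 months (grey), with SE as bars from the model over 31 arrays. Differences at the later ages lie nearer to 0 than those of 10 days, apart from Dscam at 9 months with 2.76, and this follows from the choice of the probe sets at that age.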

How the data were processed

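The deposited values are signal intensities that the authors made with MAS5, per the labels, whose version is not stated, as linear values with a trimmed mean of 500 per array. The methods describe RMA values from image files, which were not used here. For 31 arrays, 64 control probe sets were set aside, values were turned to log2 and quantile normalized, and 26877 probe sets above their array median on at least 3 arrays were fitted in limma 3.58.1 (R 4.3.3) with a mean per genotype and age, trend and robust moderation. The unit is the mouse. Platform annotation lists 1 gene for 34945 probe sets, several for 932 and none for 9160, and 34741 symbols were matched by identifier. The genes named were Glud1, up to 15 called genes in each direction above the array median, filled to 10 by the smallest p, members of lists by the smallest p and 5 departures, besides some list members chosen for their role. Members and lists were chosen with earlier results of these data known. The model was tested on simulated data. No sequence of a probe was used. Alternatives were other normalizations, filters and moderation, an added 50, SAM, the 7 arrays alone, a replicate block and each mouse left out.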

Additional observations from a re-analysis of the deposited data

Results flagged for a closer look

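The 4 wt values were examined for 103 items, which were single probe sets, lists and the array quality measures. Of these, 8 had a wt mouse that stood apart from the other 3, its gap to the nearest of them divided by the range exceeding Dixon's critical value. All 8 were probe sets or lists. Chance alone marks about 1 in 20 such groups. For Ttr the ratio was 1, with wt4 lowest at 14.79 against 15.23 in the other 3, whose deposited signals of 35915, 37470 and 36381 became a single value in quantile normalization, so that the ratio could only be 1. The deposited signal of wt4 was 26014. The same mouse was also the lowest for Slc4a5, with a ratio of 0.837, and for Wdr86, with a ratio of 0.965. These 3 are choroid plexus markers. For Tmod2 the ratio was 0.947, with wt2 at 5.65 against 7.05 or more in the other wt mice, and without wt2 its difference was 0.73. For Glud1 the ratio was 0.847 by 1416209_at, with wt1 lowest at 12.41, and 0.849 by 1448253_at, with wt3 highest at 12.77. The mean of the GABA signalling list was highest in wt2 with a ratio of 0.831, and that of the heat shock and endoplasmic reticulum stress list was highest in wt4 with a ratio of 0.89. Groups of 3 Tg mice were too small for this rule.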

How the results depend on the processing

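All 10 called probe sets kept their direction under each alternative in which they were tested, but most calls did not hold. The number higher at an adjusted p under 0.05 in limma, 3, became 1 with 50 added to the signals, 1 with the filter on the 7 arrays, 0 with the 7 arrays alone and 0 to 9 when each mouse was left out. The number lower, 7, became 0, 0 and 0 under those settings, 11 without a filter, 3 with the choroid plexus covariate (chosen after seeing the data) and 2 to 33 when each mouse was left out, the 33 without Tg2. At the stricter threshold, 0 probe sets higher became 1 without quantile normalization and 0 to 3 when each mouse was left out, and 1 lower became 3 without trend and robust terms, 0 with the added 50, the filter on the 7 arrays, the 7 arrays alone, the covariate or SAM, and 0 to 22 when each mouse was left out. Departures from later ages, 0, became 2 without quantile normalization, 8 without trend and robust terms and 0 to 24 when each mouse was left out. With the replicate number as a block, which leaves out wt4, 2 were higher and 0 lower at the stricter threshold, 4 were lower at an adjusted p under 0.05, 2 departed, and 3 of the 10 calls held, Ppm1k, Lin7c and 1435629_at. Correlations of same-numbered mice were -0.112, -0.025 and -0.021, and these 3 values are too few to tell whether the numbers pair the mice. Leaving out each mouse gave 0 to 4 called genes on the lists, which were Rps29, Rps20 and Csnk1d without Tg1 and Syt11, Enah, Gclc and Hapln4 without Tg2. Only Mrps10 stayed called in all 7 of these fits. Pigz was lost without Tg3 or wt3, Cdh19 without Tg2 or wt3, 1435629_at without wt1 or wt2, 1422249_s_at without Tg1, wt1, wt2 or wt3, and Med14 was kept without Tg2 or wt4 and Dscam without Tg3 or wt2. Glud1 changed sign, to -0.0056 by 1448253_at with the block, to -0.058 and, by 1416209_at, -0.055 with the covariate, and ran from -0.055 to 0.081 and from -0.039 to 0.081 when each mouse was left out. Tmem72 ran from -1.25 to 0.22. No detection calls were used, so how far low signals stand above background is not known.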

Other observations

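Some transcripts read highest in 1 Tg mouse, and the genes were picked after their values were seen. Malat1, a long noncoding RNA of nuclear speckles, read 11.23, 11.57 and 12.79 in Tg1 to Tg3 and 11.11, 10.25, 10.80 and 11.48 in wt1 to wt4 by 1418188_a_at, a difference of 0.95 ± 0.31 with an adjusted p of 0.43 in limma. Ddx6, an RNA helicase of P-bodies, read 10.46, 10.67 and 11.87 against 10.13 to 10.38 by 1424598_at, Apc, a regulator of Wnt signalling, 9.56, 9.51 and 10.87 against 8.73 to 9.15 by 1420957_at, and Necab1, a calcium-binding protein of neurons, 9.16, 8.91 and 10.54 against 8.54 to 8.89 by 1457142_at. None passed the test. For Apc and Ddx6, a probe set with higher signals did not share this, with differences of 0.0096 ± 0.070 for Apc by 1420956_at and -0.05 ± 0.08 for Ddx6 by 1434697_at. Ecrg4, a secreted protein made in the choroid plexus that is on no list here, read 7.88, 8.07 and 9.41 in Tg and 11.03, 10.40, 11.11 and 8.93 in wt by 1423261_at, the order of mice seen for the choroid plexus markers. In the dentate granule cell list, Rfx3, a transcription factor of ciliated and neural cells, read 10.00, 10.37 and 10.57 in Tg against 10.61 to 11.10 in wt, a difference of -0.56 ± 0.15 with an adjusted p of 0.229 in limma.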
